A study of Mus musculus with 6 samples.

Results

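The genes described here encode carriers of amino acids, peptides and monocarboxylates, measured in mouse liver. They were chosen by name, as every array probe besides the control spots whose gene symbol places it in solute carrier family Slc1, Slc3, Slc6, Slc7, Slc15, Slc16, Slc36, Slc38 or Slc43. This gave 74 of the 27672 gene names on the array, with 123 of its 41174 probes. One of them, Slc7a6os, matched by its name alone and is the gene on the opposite strand of Slc7a6, not a carrier, so 73 carrier genes remained. Counts of carrier genes below still include Slc7a6os, because the naming rule took it. The naming rule itself uses no expression value.

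Total liver RNA came from male C57BL/6J mice, an inbred laboratory strain, and was hybridised to 1-colour Agilent arrays. The CFD diet group (3 arrays) ate a diet with no choline, no folic acid and 0.17% methionine. The control group (3 arrays) ate a diet with 0.3% choline bitartrate, 2 mg/kg folic acid and 0.4% methionine. Both diets shared an iron-supplemented base in which free L-amino acids take the place of protein, and both groups started at 8 weeks of age, stayed on the diet for 12 weeks and were 20 weeks old when the liver was taken. Whether each numbered replicate was its own mouse is not said in the labels. The p-values therefore speak only of variation among these 6 samples, some of which may be technical.

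Amino acids cross membranes on carriers that differ in substrate and in driving force. Sodium-coupled carriers of the Slc1, Slc6 and Slc38 families load cells against a gradient, while most light chains of the Slc7 family exchange an amino acid inside for one outside and reach the surface only when bound to a glycoprotein heavy chain, Slc3a1 or Slc3a2. Slc16 carriers move lactate, pyruvate, ketone bodies and, in some members, aromatic amino acids, several of them with the help of the chaperones basigin or embigin. In liver, periportal hepatocytes take up amino acids for urea and glucose synthesis, and a few perivenous hepatocytes take up glutamate and ammonia to make glutamine.

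Signals are given as percent of the array's 75th percentile of processed signal, so that 100 is that percentile (scaled signal). A probe was tested where the scanner software flagged it as well above background on every array of 1 or both diets, and a gene was read from its brightest tested probe. By this rule 47 of the 74 genes were tested. Of these, 42 were well above background on all 6 arrays, and the other 5 (Slc1a6, Slc7a3, Slc7a6, Slc7a9 and Slc7a11) passed only through the CFD diet arrays. A further 13 genes were above background on some arrays but too few to be tested, and 14 were above background on none. Those on none included Slc1a7, Slc6a2, Slc6a3, Slc6a5, Slc6a15, Slc6a18, Slc6a20b, Slc7a10, Slc7a12, Slc7a13, Slc15a1, Slc16a4 and Slc16a14. The genes seen on too few arrays were Slc1a1, Slc1a3, Slc6a4, Slc6a7, Slc6a11, Slc6a14, Slc6a17, Slc6a19, Slc7a1, Slc7a14, Slc36a2, Slc36a3 and Slc38a5. Signals of different probes are not compared with each other, since each probe has its own response.

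Of the 47 tested genes, 18 were higher and 12 lower in CFD diet livers by limma (adjusted p below 0.05 over all 15905 tested genes), and 17 did not pass. Scaled to each array's median instead, which put the median of all tested genes at -0.31, the counts were 14 higher and 18 lower, beside 2934 higher and 5813 lower of all 15905 genes. In the reported fit the calls were 63.8% of the tested carrier genes, against 51.1% of all tested genes. The 18 higher genes were 38.3% of those tested, where 23.7% of all tested genes on the array were higher. Of these 18, 3 (Slc1a6, Slc7a6 and Slc7a11) could be tested only through the CFD diet arrays, so they had to be high there. Among the 42 genes above background on all 6 arrays, 15 were higher and 12 lower. A fit limited to probes above background on all 6 arrays gave 15 carrier genes higher and 14 lower. Beside them, 2819 genes of the whole array were higher and 4348 lower in that fit. It tested fewer than 15905 genes, and no array-wide share is given for it. The 12 lower genes were 25.5%, close to the 27.4% of all tested genes that were lower. At a difference of at least 2-fold, 12 of the carrier genes were higher and 6 lower, against array-wide shares of 14.8% and 9.78%. Every CFD diet array lay above every control array for 20 of the 47 genes (28.3% of all genes) and below for 16 (34.6% of all genes). The median log2 fold change was 0.17 for the 47 genes and -0.11 for all tested genes, and it was the same with the 2 genes below background on every control array set at their lower bounds. With median scaling it was -0.039 for the carrier genes. These are whole-liver samples, in which fewer cells of a type and less RNA per cell cannot be told apart.

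By family, the counts ran as follows. In Slc7, 5 of 11 tested genes were higher and 2 lower, and in Slc16, 5 of 12 were higher and 3 lower. Slc38 had 1 higher and 3 lower among its 4 tested genes, and Slc43 had 2 higher and none lower among 3. In Slc1, 2 of 4 tested genes were higher and 1 lower, and each of the 2 heavy chain genes of Slc3 moved in its own direction. Slc6 had the most undetected genes, with 6 of 19 tested, 1 higher and 2 lower. Slc15 had 1 higher gene of 3 tested, and neither tested Slc36 gene passed.

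**Figure D1:**
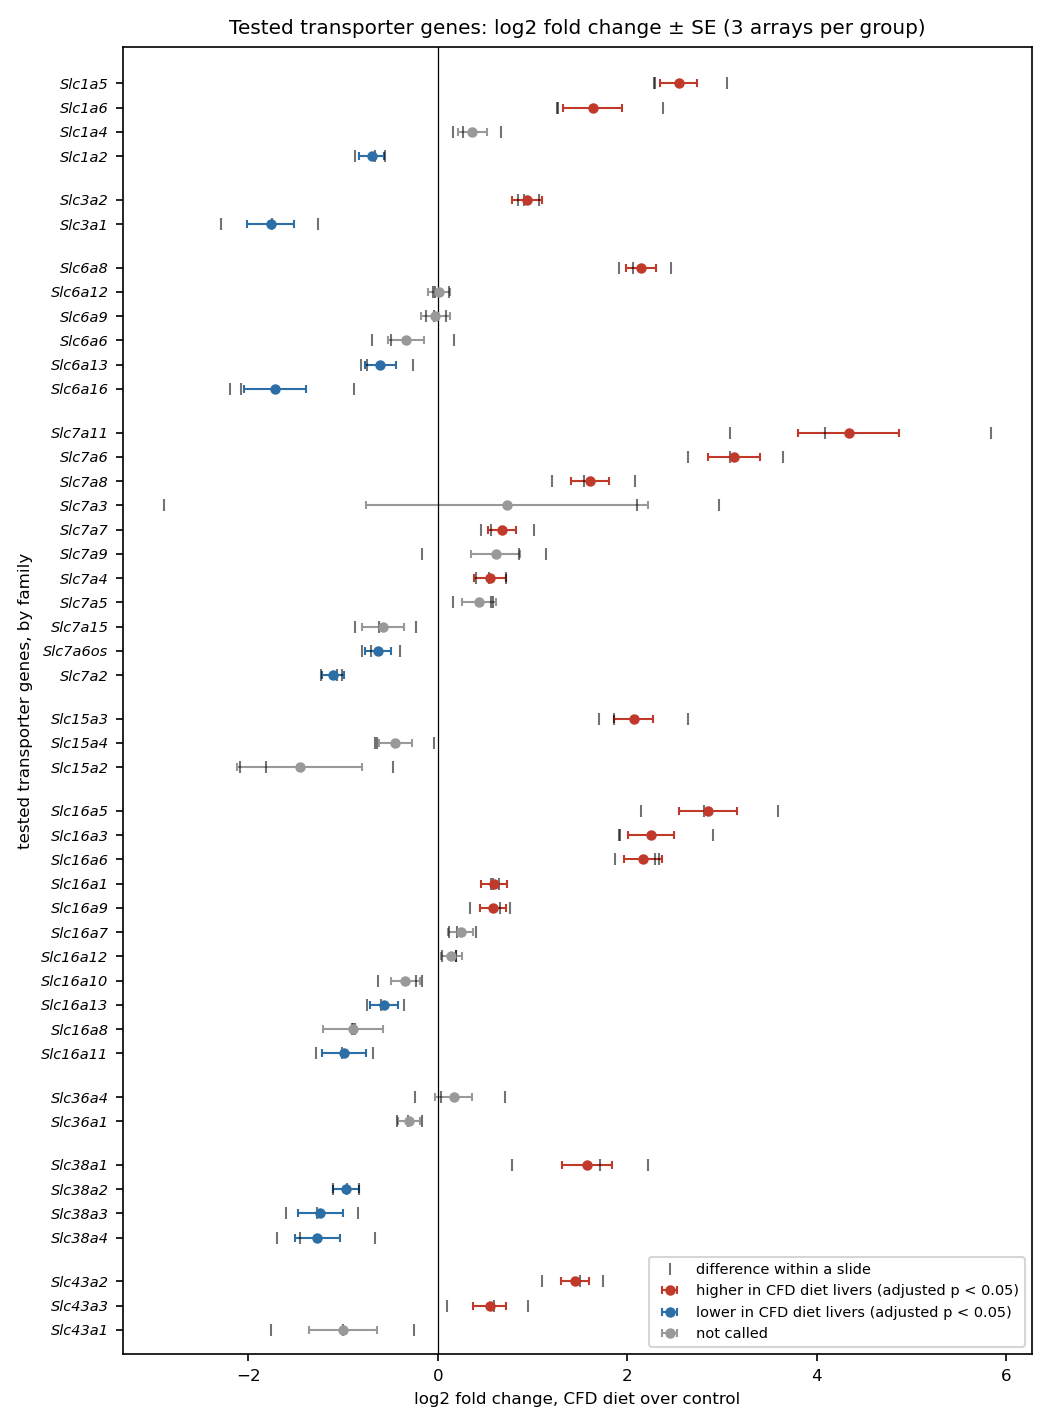
Log2 fold change of the scaled signal, CFD diet over control, for 46 of the 47 tested carrier genes grouped by family, with standard errors from limma (3 arrays per diet), colours for the call and black ticks for the difference within each slide. Values run from -1.77 for Slc3a1 to 4.34 for Slc7a11, whose control signal, like that of Slc7a6, was below background so that its position is not a measured fold, and higher and lower genes stand side by side within most families.

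**Figure D2:**
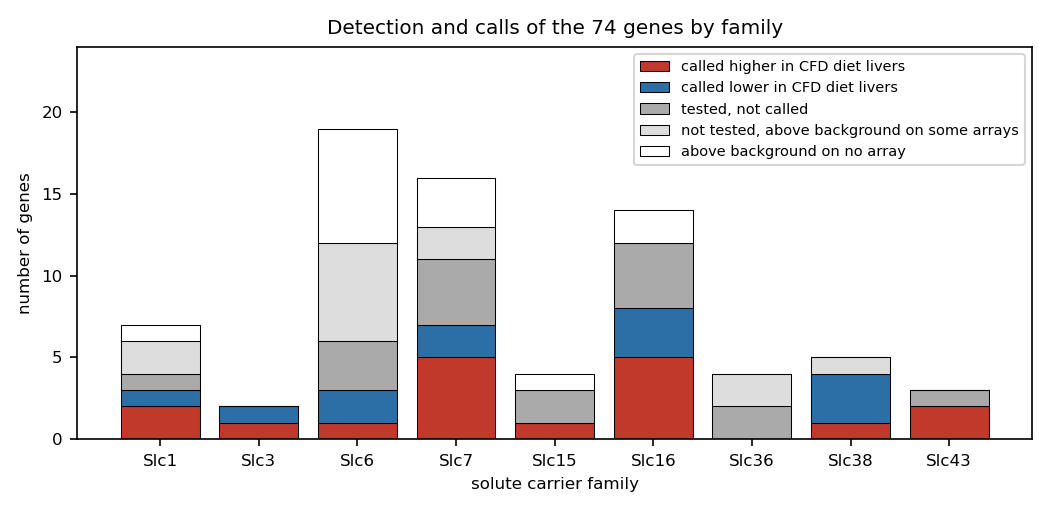
Number of genes in each family that were higher, lower or not called in CFD diet against control livers, were above background on too few arrays to be tested, or were above background on no array. Slc6 holds the most genes that were not tested, and Slc16 and Slc7 the most that were.

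The cystine and glutamate exchanger Slc7a11 (xCT), which supplies cysteine for glutathione, was detected on the CFD diet arrays. Its scaled signal was 16.7, 6.02 and 15.1 on CFD diet arrays 1 to 3, against 0.293, 0.708 and 0.888 on control arrays 1 to 3, none of which was well above background. The control values are therefore limits. By this probe and the scanner software's background subtraction, the signal was at least 4.88-fold higher in CFD diet livers. Limma's adjusted p, which rests on control values below background, was 0.0012. With another background correction, normexp, the log2 fold change was 0.90, below that bound. All CFD diet arrays lay above all control arrays, with array 2 the lowest of its group. The probe maps to chromosome 3, bases 50490342 to 50490401 in build mm7 of the files. Of the other 3 Slc7a11 probes, none reached the test, and each was above background on CFD diet arrays 1 and 3. For 2 of them, above background on no control array, the lower bounds were only 1.18-fold and 1.48-fold. The remaining probe read 33.9 on control array 2, above every CFD diet array for that probe.

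The start of Slc7a11 is shown because it carries the motif searched for in the carrier genes, TGATGNAA, the core of the element that binds ATF4 with a C/EBP partner when amino acids are scarce. RefSeq sequence of assembly GRCm38.p6 was searched on both strands from 250 bases before to 50 bases after each annotated start. The stretch of Slc7a11 lies at chr3:50443614-50443713 on the minus strand and is written in the gene's direction, with the motif and its reverse complement in capitals. The stretch of Slc7a7, a light chain described with its partners, lies at chr14:54418062-54418101 on the minus strand, before the farthest upstream of its annotated starts.
Slc7a11: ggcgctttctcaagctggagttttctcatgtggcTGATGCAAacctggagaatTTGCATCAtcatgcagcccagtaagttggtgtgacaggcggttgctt
Slc7a7: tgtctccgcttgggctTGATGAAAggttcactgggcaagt
The matches of Slc7a11 begin 66 bases before the start on the gene's strand and 47 bases before it on the other strand. That of Slc7a7 begins 141 bases before the start, and a second one lies across the start itself. A window was given for 50 of the 74 genes, and 3 of the 50 (6%) held the motif, Slc1a4 being the third, where 4.51% of 27025 genes with a window did. At least 2 matches were found in Slc7a11 and Slc7a7, and in 23 genes (0.0851%) of all. A match describes the letters of a window and not a bound site.

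Among the partners of the heavy chain Slc3a2 (4F2hc, CD98), both exchangers of basic for neutral amino acids were higher, as was the heavy chain. Slc3a2 itself had a scaled signal of 2256, 2157 and 2908 on CFD diet arrays 1 to 3, against 1198, 1199 and 1392 on control arrays 1 to 3, without overlap. The fold change was 1.92 (log2 0.94 ± 0.16, SE; adjusted p = 0.0036), and a second probe gave 0.95 ± 0.18. Slc7a6 (y+LAT2) read 8.37, 6.80 and 12.2 on CFD diet arrays, against 1.34, 0.802 and 0.981 on control arrays, none of them well above background. By this probe and the scanner software's background subtraction, Slc7a6 was at least 3.65-fold higher. Limma's adjusted p of 0.00035 again rests on control values below background. With normexp the log2 fold change was 0.57, below that bound, and did not pass. Its opposite-strand neighbour Slc7a6os, measured at bases 104799772 to 104799831 of chromosome 8 in mm7 where the Slc7a6 probe lies at 104796102 to 104796161, was lower, with 179 ± 25.9 in CFD diet livers and 277 ± 4.59 in control livers (SD, n = 3 arrays each; log2 -0.64 ± 0.14).

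Slc7a7 (y+LAT1), the carrier whose loss causes lysinuric protein intolerance in humans, read 357, 385 and 465 on CFD diet arrays, against 260, 261 and 230 on control arrays. This was 1.60-fold higher (log2 0.68 ± 0.14; adjusted p = 0.0083). Slc7a8 (LAT2), an exchanger of neutral amino acids, read 206, 184 and 299 on CFD diet arrays, against 70.4, 80.2 and 70.8 on control arrays. The groups were far apart, 3.05-fold higher with the CFD diet (log2 1.61 ± 0.20; adjusted p = 0.0012). Slc7a5 (LAT1), the exchanger of large neutral amino acids found in many growing tissues, read 11.4, 10.2 and 12.7 on CFD diet arrays, against 10.2, 6.86 and 8.61 on control arrays. The values met at 10.2 and the log2 difference of 0.43 ± 0.18 did not pass (adjusted p = 0.084; 95% interval 0.0031 to 0.857), but it passed without control array 1 (adjusted p = 0.049). The last partner, Slc7a10, was above background on no array.

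The other heavy chain, Slc3a1 (rBAT), carries cystine and basic amino acids in kidney together with the light chain Slc7a9. Its log2 fold change was the lowest of the tested carrier genes. It read 184, 257 and 127 on CFD diet arrays 1 to 3, against 620, 617 and 622 on control arrays 1 to 3. The control arrays were nearly equal, and the highest CFD diet array, array 2, stayed well below them. Slc3a1 was 3.4-fold lower in CFD diet livers (log2 -1.77 ± 0.25; adjusted p = 0.0020). Slc7a9 was well above background on the 3 CFD diet arrays and 1 control array, and its log2 difference of 0.61 ± 0.26 did not pass (adjusted p = 0.088).

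Of the light chains' relatives that work alone as carriers of arginine, lysine and ornithine, Slc7a2 (CAT2) is the main one known in liver. Its scaled signal was 125, 125 and 112 on CFD diet arrays, against 253, 263 and 263 on control arrays. Both groups were tight and far apart, 2.15-fold lower with the CFD diet (log2 -1.11 ± 0.11; adjusted p = 0.00059). Slc7a1 (CAT1), which most other tissues use, read 2.90, 2.31 and 2.20 on CFD diet arrays, against 1.81, 0.707 and 1.71 on control arrays, and was too often near background to be tested. For Slc7a3 (CAT3) the values were 4.65, 4.78 and 3.15 on CFD diet arrays, against 0.595, 35.3 and 0.735 on control arrays. A single array, control 2, stood above all others and was the only control array well above background. The log2 difference of 0.73 ± 1.49 did not pass (adjusted p = 0.70). Without control array 2 it was 2.64 and passed (adjusted p = 0.0013). That value rests on control values below background and is not a measured fold. Slc7a4, a relative without a known substrate, was 1.47-fold higher (log2 0.55 ± 0.17; adjusted p = 0.032), a call that was lost in 9 of the alternative settings. Among these, its adjusted p was 0.099 without control array 1, 0.074 without control array 2, 0.068 without CFD diet array 2 and 0.092 without CFD diet array 3. Slc7a15 gave log2 -0.58 ± 0.22 and did not pass (adjusted p = 0.066), though it did without CFD diet array 2 (adjusted p = 0.0040).

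**Figure D3:**
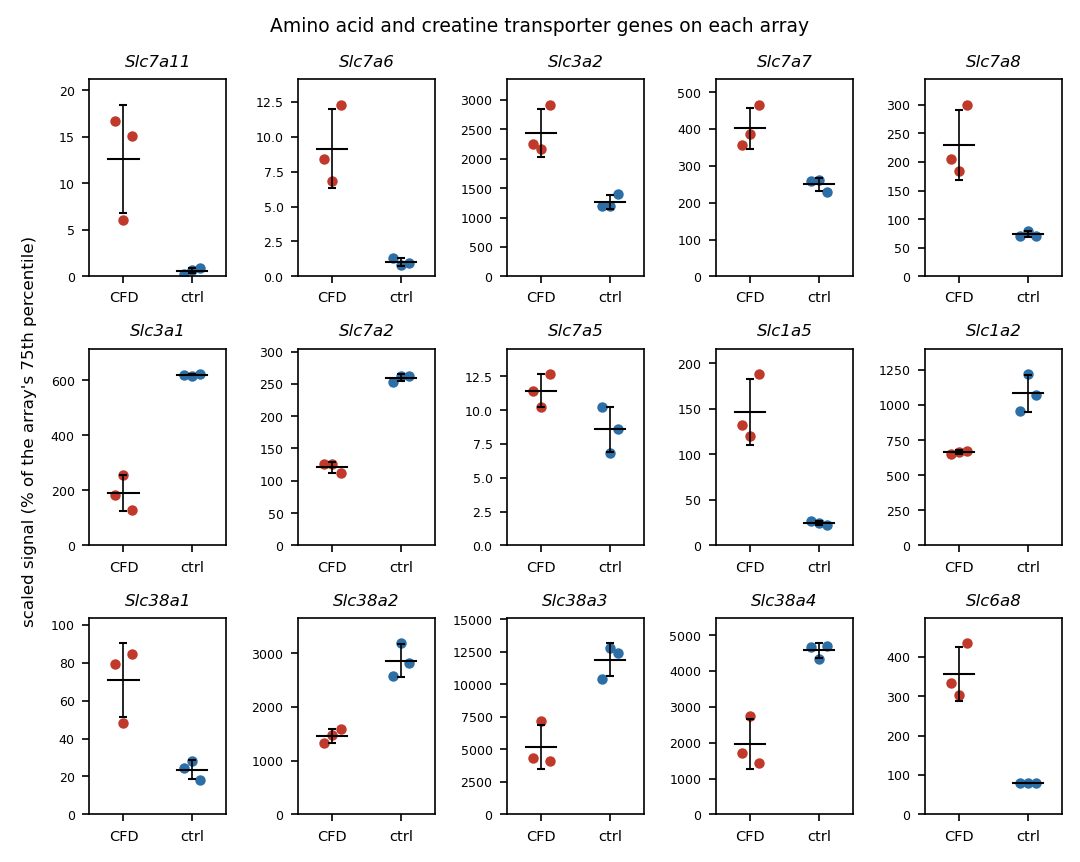
Scaled signal (percent of the array's 75th percentile, linear axes from 0) of 15 amino acid and creatine carrier genes on each array, with CFD diet arrays left of control arrays and bars for the group mean ± SD (n = 3 arrays each). Slc7a11, Slc1a5 and Slc6a8 sit higher on every CFD diet array, and Slc3a1, Slc38a3 and Slc38a4 lower, with CFD diet array 2 nearest to the controls in these 3.

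Carriers of neutral amino acids and glutamine split by gene. Slc1a5 (ASCT2), an exchanger that brings glutamine into many dividing cells, read 132, 120 and 188 on CFD diet arrays, against 27.0, 24.8 and 22.7 on control arrays. It was 5.82-fold higher in CFD diet livers (log2 2.54 ± 0.19; adjusted p = 0.00021), with no overlap. Slc38a1 (SNAT1), a sodium-coupled carrier of glutamine and alanine, read 79.1, 48.4 and 84.7 on CFD diet arrays, against 24.2, 28.1 and 18.2 on control arrays. This was 2.97-fold higher (log2 1.57 ± 0.26; adjusted p = 0.0037). Of its other tested probes, a pair gave log2 fold changes of 1.86 each and passed. In that pair, the probe at bases 96573044 to 96573102 was well above background on only 1 control array. It was therefore tested only through the CFD diet arrays, where it was high. The third probe, far from the pair on chromosome 15 at bases 96640755 to 96640814, was also above background on only 1 control array. It gave -0.28 ± 0.41 and did not pass.

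The 3 Slc38 carriers with a known place in hepatocytes were lower. Slc38a2 (SNAT2) is the carrier that starved cells bring up to take in small neutral amino acids. It read 1322, 1479 and 1583 on CFD diet arrays, against 2566, 3186 and 2824 on control arrays, 1.95-fold lower (log2 -0.97 ± 0.14; adjusted p = 0.0021). All 4 of its probes passed in this direction, with log2 fold changes between -1.01 and -0.58. Periportal hepatocyte markers were lower as well, in 6 of 6 tested genes (27.4% of all tested genes were lower). The part of periportal hepatocytes in these falls was not tested.

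Slc38a3 (SNAT3), the main sodium and proton coupled glutamine carrier of liver, read 4312, 7149 and 4091 on CFD diet arrays, against 10441, 12826 and 12397 on control arrays. It was 2.36-fold lower (log2 -1.24 ± 0.23; adjusted p = 0.0056). Slc38a4 (SNAT4), found chiefly in liver, read 1705, 2743 and 1443 on CFD diet arrays, against 4676, 4337 and 4700 on control arrays. It was 2.42-fold lower (log2 -1.27 ± 0.24; adjusted p = 0.0055), and its second probe gave -1.08 ± 0.20. In both genes CFD diet array 2 was the highest of its group and still below every control array. Slc38a5 (SNAT5) was above background on 1 array of each diet and was not tested, with 1.30, 1.22 and 1.19 on CFD diet arrays and 3.89, 3.21 and 3.64 on control arrays.

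Among the glutamate carriers of Slc1, Slc1a2 (GLT-1), which in liver marks the perivenous hepatocytes that make glutamine, was lower by its brightest probe. That probe read 648, 665 and 674 on CFD diet arrays, against 957, 1218 and 1069 on control arrays (log2 -0.70 ± 0.13; adjusted p = 0.0052). A second probe, less than 100 bases away on chromosome 2, gave 0.07 ± 0.18 (adjusted p = 0.78), and the call was lost when the probes were averaged. Slc1a6 (EAAT4), known from Purkinje cells of the cerebellum, read 11.9, 12.6 and 12.0 on CFD diet arrays, against 4.92, 5.24 and 2.31 on control arrays, of which array 3 was not well above background. It passed as higher (log2 1.64 ± 0.31; adjusted p = 0.0057), and with normexp the log2 fold change was 0.55 (adjusted p = 0.032), so its size is uncertain. Slc1a4 (ASCT1), a carrier of alanine, serine and cysteine, did not pass, at log2 0.36 ± 0.15 (adjusted p = 0.089), but did so without CFD diet array 2 (adjusted p = 0.024). Slc1a1 was above background on 1 CFD diet array and no control array, too little for a bound above 1.

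In Slc6, whose members carry creatine, taurine, glycine, betaine and neurotransmitters with sodium and chloride, the creatine carrier Slc6a8 stood out from control livers. It read 333, 303 and 434 on CFD diet arrays, against 80.0, 80.8 and 79.2 on control arrays, 4.41-fold higher (log2 2.14 ± 0.16; adjusted p = 0.00020). Creatine synthesis draws on methyl groups, as does the methylation of phospholipids. The carrier of betaine, a methyl donor made from choline, is Slc6a12 (BGT1). Its values overlapped, with 1957, 2098 and 2133 on CFD diet arrays and 1998, 1929 and 2213 on control arrays (log2 0.01 ± 0.12; adjusted p = 0.94; 95% interval -0.27 to 0.29).

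The glycine carrier Slc6a9 (GLYT1) read 1859, 2120 and 2424 on CFD diet arrays, against 2021, 1994 and 2502 on control arrays, overlapping in the same way (log2 -0.03 ± 0.16; 95% interval -0.40 to 0.35). The taurine carrier Slc6a6 read 1338, 1114 and 1215 on CFD diet arrays, against 1188, 1806 and 1715 on control arrays, and did not pass (log2 -0.34 ± 0.19; adjusted p = 0.17). Control array 1 was the lowest of its group, and without it the difference passed (log2 -0.53; adjusted p = 0.037). Slc6a13 (GAT2), a carrier of GABA and taurine at the hepatocyte surface, was lower. It read 4002, 5759 and 4370 on CFD diet arrays, against 6735, 6934 and 7647 on control arrays (1.52-fold; log2 -0.61 ± 0.17; adjusted p = 0.021). That call was lost in 6 alternative settings, among them quantile normalization, where the log2 fold change was -0.15. Its adjusted p lay between 0.052 and 0.078 without control array 2, control array 3, CFD diet array 1 or CFD diet array 3. Slc6a16, which has no known substrate, read 11.7, 26.9 and 11.7 on CFD diet arrays, against 53.5, 49.5 and 49.6 on control arrays, 3.29-fold lower (log2 -1.72 ± 0.33; adjusted p = 0.0056; -1.09 with normexp, which also passed). Of the 13 Slc6 genes that were not tested, 7 were above background on no array, among them the carriers of dopamine (Slc6a3) and noradrenaline (Slc6a2). Slc6a17, a carrier of neutral amino acids into synaptic vesicles, was above background on 2 arrays of each diet, with 2.69, 3.54 and 1.77 on CFD diet arrays and 15.8, 17.0 and 2.61 on control arrays, and it was not tested. Slc6a19, the neutral amino acid carrier of gut and kidney, was above background on 1 CFD diet array and no control array, and the GABA carrier Slc6a11 on 1 control array and no CFD diet array.

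Slc15 carriers move di- and tripeptides with protons, and 2 of them, Slc15a3 and Slc15a4, sit in the lysosomes of immune cells. Slc15a3 (PHT2) read 196, 187 and 302 on CFD diet arrays, against 53.8, 57.4 and 48.4 on control arrays, 4.2-fold higher (log2 2.07 ± 0.21; adjusted p = 0.00054). Slc15a4 (PHT1) read 641, 844 and 774 on CFD diet arrays, against 1002, 866 and 1226 on control arrays, and did not pass (log2 -0.45 ± 0.18; adjusted p = 0.073), although no CFD diet array reached a control array. Macrophage markers were higher in 6 of 7 tested genes (23.7% of all tested genes were higher). The part of macrophages in the rise of Slc15a3 was not tested. The gut carrier Slc15a1 was above background on no array. The probes of Slc15a2 (PEPT2) disagreed, a point singled out after the values were seen. The brighter gave log2 -1.46 ± 0.66 and did not pass (adjusted p = 0.10), while the other, above background on all CFD diet arrays and 1 control array, gave 3.04 ± 0.41 (adjusted p = 0.0017 in the fit of all tested probes, where 22.1% were higher). Neither tested Slc36 carrier passed. Slc36a1, a proton-coupled carrier of small amino acids on lysosomes and at the cell surface, gave log2 -0.30 ± 0.12 (adjusted p = 0.072) and Slc36a4 0.17 ± 0.19. Slc36a2 was above background on 2 CFD diet arrays and no control array.

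The first-known carriers of lactate, pyruvate and ketone bodies in Slc16, MCT1 to MCT4, were higher or did not pass. Slc16a3 (MCT4), the lactate exporter of glycolytic cells, read 55.4, 61.4 and 102 on CFD diet arrays, against 14.6, 16.3 and 13.6 on control arrays. It was 4.75-fold higher (log2 2.25 ± 0.24; adjusted p = 0.00071), and with normexp the log2 fold change was 1.49 and still passed. Slc16a1 (MCT1), the widespread carrier of lactate and ketone bodies, read 903, 740 and 824 on CFD diet arrays, against 605, 501 and 528 on control arrays. This 1.51-fold difference (log2 0.59 ± 0.14; adjusted p = 0.011) was lost when arrays were scaled to their median, when dim probes were kept and when probes were averaged. Slc16a7 (MCT2) did not pass, at log2 0.24 ± 0.13 (adjusted p = 0.17). Slc16a8 (MCT3), known from retinal pigment epithelium, gave -0.89 ± 0.32 (adjusted p = 0.053) and passed without CFD diet array 2 (adjusted p = 0.019).

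Slc16a6 (MCT7), which exports ketone bodies from hepatocytes in zebrafish, read 484, 296 and 423 on CFD diet arrays, against 99.1, 81.1 and 83.7 on control arrays. It was 4.48-fold higher (log2 2.16 ± 0.21; adjusted p = 0.00045), and its second probe, not well above background on any control array, was at least 1.63-fold higher. Slc16a5 (MCT6), known as a carrier of drugs such as bumetanide, read 238, 245 and 216 on CFD diet arrays, against 33.9, 20.3 and 48.7 on control arrays. With 7.21-fold (log2 2.85 ± 0.30; adjusted p = 0.00069), it had the largest log2 rise among the Slc16 genes. Slc16a9 (MCT9) was 1.5-fold higher, with 73.8, 72.7 and 76.2 on CFD diet arrays and 46.9, 57.5 and 45.1 on control arrays (log2 0.58 ± 0.13; adjusted p = 0.011), and narrowly missed the threshold without control array 3 (adjusted p = 0.052).

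The remaining tested Slc16 genes were lower or did not pass. Slc16a11 (MCT11), a proton-coupled carrier whose human form moves pyruvate, read 546, 1001 and 771 on CFD diet arrays, against 1329, 1605 and 1554 on control arrays (1.99-fold; log2 -0.99 ± 0.23; adjusted p = 0.012). CFD diet array 2 was again the highest of its group. Its neighbour on chromosome 11, Slc16a13, read 10.8, 13.4 and 14.8 on CFD diet arrays, against 18.1, 20.4 and 18.9 on control arrays. That difference (log2 -0.57 ± 0.15; adjusted p = 0.020) was lost in 5 alternative settings, with an adjusted p of 0.063 without control array 2 and 0.062 without control array 3. The creatine carrier Slc16a12 gave 0.14 ± 0.11 and the aromatic amino acid carrier Slc16a10 (TAT1) -0.35 ± 0.15, and neither passed, though 1 of 3 Slc16a10 probes did, at -0.76 ± 0.15 (27.6% of all tested probes were lower).

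Of the chaperones that bring Slc16 carriers to the surface, embigin and basigin differed. Emb, which encodes embigin, read 130, 130 and 210 on CFD diet arrays, against 8.36, 10.3 and 5.74 on control arrays (log2 4.27 ± 0.28; adjusted p = 0.00013). Bsg, which encodes basigin, read 906, 1028 and 1022 on CFD diet arrays, against 914, 941 and 968 on control arrays, and did not pass (log2 0.06 ± 0.11; adjusted p = 0.66).

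**Figure D4:**
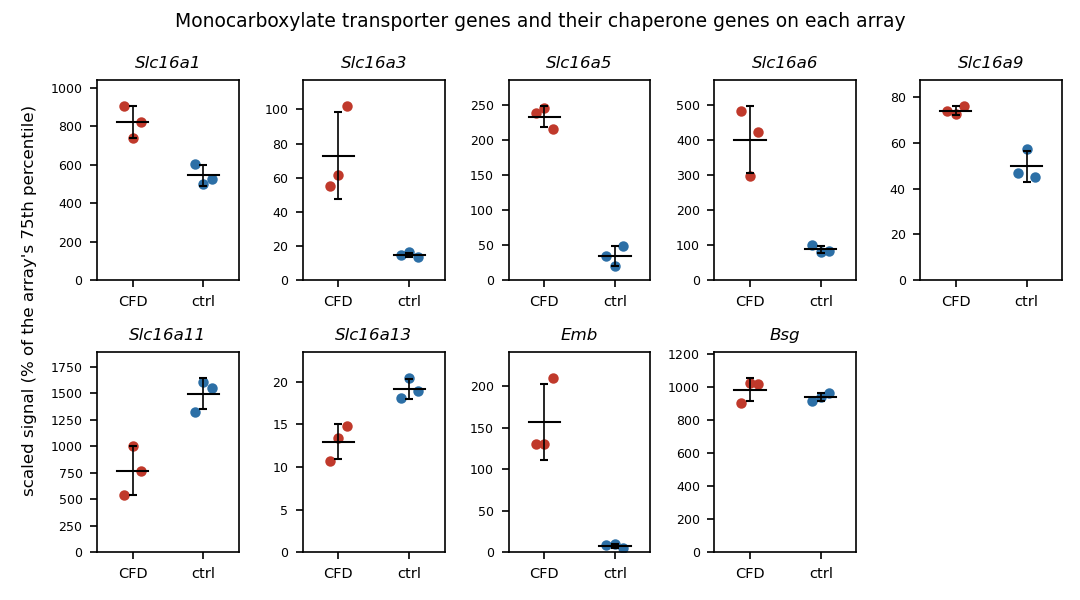
Scaled signal (percent of the array's 75th percentile, linear axes from 0) of 7 Slc16 genes and of the chaperone genes Emb and Bsg on each array, with CFD diet arrays left of control arrays and bars for the group mean ± SD (n = 3 arrays each). Slc16a3, Slc16a5, Slc16a6 and Emb lie higher on every CFD diet array, Slc16a11 and Slc16a13 lower, and Bsg overlaps.

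The Slc43 carriers move large neutral amino acids or, for Slc43a3, purine bases. Slc43a2 (LAT4) read 24.5, 18.7 and 22 on CFD diet arrays, against 7.31, 8.71 and 7.81 on control arrays, 2.73-fold higher (log2 1.45 ± 0.15; adjusted p = 0.00058), and a second probe gave 2.04 ± 0.25. With normexp the log2 fold change was 0.66 and still passed. Slc43a3 read 1371, 1057 and 1274 on CFD diet arrays, against 708, 987 and 847 on control arrays. Its call (log2 0.55 ± 0.17; adjusted p = 0.035) was lost in 7 alternative settings. Its adjusted p was 0.11 without control array 1, 0.091 without control array 3, 0.098 without CFD diet array 1 and 0.099 without CFD diet array 3. Slc43a1 (LAT3) read 34.9, 34.0 and 28.9 on CFD diet arrays, against 41.5, 115 and 57.6 on control arrays, without overlap but with a wide control spread (log2 -1.0 ± 0.36; adjusted p = 0.053). It passed without control array 1 (adjusted p = 0.020).

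Genes that work beside these carriers were read from short lists. Of 7 genes for chaperones and surface peptidases, 6 were tested and 3 were higher. The higher ones were Emb, the dipeptidase Dpep1 (log2 2.80 ± 0.21) and Ggt1, which opens glutathione for reuse and was not well above background on any control array. Of 12 genes of the ATF4 response to amino acid shortage and stress, 6 were higher, 2 lower and 4 did not pass, where 51.1% of all tested genes were called (23.7% higher and 27.4% lower). Asns, the asparagine synthetase that this response switches on, read 5713, 5709 and 6299 on CFD diet arrays, against 636, 269 and 163 on control arrays (log2 4.28 ± 0.46). Nupr1 (5.85 ± 0.30) and Atf3 (4.55 ± 0.25), both stress-induced regulators, were higher too, while Atf4 itself gave -0.09 ± 0.13 and Chac1 and Sesn2 did not pass. Eif2ak4, the kinase that senses uncharged transfer RNA, was lower (-0.46 ± 0.13), as was Cebpb (-0.66 ± 0.15).

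Genes for the fate of glutamine and lactate inside the cell moved both ways. Gls2, the glutaminase of periportal hepatocytes, was lower (log2 -1.35 ± 0.23), without overlap of the groups. Ldhb, a lactate dehydrogenase subunit, was higher (2.22 ± 0.15), and Ldha and Glul, the glutamine synthetase of perivenous hepatocytes, did not pass. Of 6 genes of lysosomal amino acid sensing, Rragd was higher (2.29 ± 0.26), Mtor and Rptor were lower (-0.42 ± 0.13 and -0.66 ± 0.11), and 3 did not pass.

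Markers of several cell types also differed between the diets, where 23.7% of all tested genes were higher and 27.4% lower. Periportal hepatocyte markers were lower in 6 of 6 tested genes, with a summed scaled signal of 21947 to 44995 on CFD diet arrays and 78143 to 89824 on control arrays. General hepatocyte markers were lower in 4 of 6 (101460 to 173322 on CFD diet arrays and 173486 to 210709 on control arrays). The largest part of that sum was Alb, which did not pass (57944 to 104248 on CFD diet arrays and 80870 to 118218 on control arrays). Perivenous markers were lower in 3 of 6 and higher in 1. The lower 3 included Slc1a2, itself a carrier gene described here, whose second probe did not pass. Macrophage markers were higher in 6 of 7 and lower in 1. The summed signal of all 7 was 8344 to 10708 on CFD diet arrays and 4156 to 4554 on control arrays. Clec4f, a Kupffer cell marker, was lower (1358 to 2367 on CFD diet arrays and 2790 to 2888 on control arrays). Cholangiocyte markers were higher in 6 of 6 (8850 to 12287 on CFD diet arrays and 575 to 891 on control arrays), stellate cell markers in 7 of 7 and proliferation markers in 5 of 5. Both neutrophil markers tested were higher, and of the endothelial markers 1 of 6 was higher and 2 lower. No lymphocyte marker was higher. Which cells carried each transporter RNA was not measured, and the part of these cell types in the carriers' differences was not tested.

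Same-numbered arrays of the 2 diets shared a slide, so each slide gave its own difference. Among the 18 higher genes the median log2 difference was 1.73 on slide 1, 1.23 on slide 2 and 2.18 on slide 3, and slide 2 gave the smallest difference for 14 of them. Among the 12 lower genes the medians were -1.15, -0.86 and -1.12, and slide 2 gave the smallest for 8. The general hepatocyte markers were also highest, among the CFD diet arrays, on that of slide 2. Without slide 2, the counts were 18 higher and 14 lower. Arrays of one diet correlated across genes at 0.982 to 0.993 and arrays of different diets at 0.913 to 0.951, with no saturated spots. Probes well above background numbered 23580 to 29035 on CFD diet arrays and 21685 to 26264 on control arrays.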

How the data were processed

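Liver RNA was measured on 6 single-dye Agilent arrays, grouped by the labels. The deposited scanner files hold an intensity per spot, already background-subtracted by Agilent Feature Extraction (version 10.5.1.1 per the file headers, 10.7 per the submitters' processing notes). The deposited value table holds intensity on a linear scale. Its columns match, by rank, another replicate number of the same diet, so replicates are numbered by the scanner files and the table served only as an alternative, with which numbering was intended unknown.

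Control and outlier spots were left out, spots of a probe were averaged, each signal was divided by its array's 75th percentile and taken to log2. Of all probes, 23476 were tested. The test was that of limma 3.58.1 (lmFit, then eBayes; R 4.3.3), with Benjamini-Hochberg adjustment over 15905 genes, or over the tested probes where a gene's single probes are given. Adjusted p below 0.05 made a call. The ± beside a log2 fold change is limma's standard error. The fit was tested on simulated data. Where no array of a diet was well above background, only a bound is given, which sets the brighter diet's mean against the higher, on each array, of the lowest signal well above background and the probe's own.

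Probe positions come from the files (build mm7), and gene names were updated through RefSeq (GRCm38.p6), in which the file's Slc6a20 is Slc6a20b. Named with values are called genes that differ at least 2-fold, carriers with a known part in liver or in heteromers, genes below background in 1 diet and genes whose probes disagree. Other called genes were added for completeness, and a few genes are not reported here. The members and lists were chosen with earlier results of these data known. Alternatives were normexp, quantile or median scaling, other filters, slide as a block, eBayes with trend and robust settings, averaged probes, the value table, members by current symbol and leaving out each array. Precision is limited by having 3 arrays per diet.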

Additional observations from a re-analysis of the deposited data

How the results depend on the processing

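Across the alternatives, the number of carrier genes called ran from 14 to 18 higher and from 10 to 18 lower, against 18 higher and 12 lower in the reported fit. Scaling to the array median gave 14 higher and 18 lower, and the array-wide median was then -0.31, against -0.11 as reported (log2). The median of the carrier genes, 0.17 as reported, was -0.039 with that scaling, 0.28 with quantile normalization, -0.31 with no filter on dim probes and -0.0066 when a probe had to be well above background on all 6 arrays. Leaving out 1 array at a time gave 0.018 to 0.21 for it, the lowest without control array 1. Over the whole array, genes called lower were 4352 as reported, 2461 with no filter, and 2770 to 4953 with 1 array left out, the lowest without control array 3 and 2886 without CFD diet array 3. Of the 18 higher calls, 13 held in each setting that tested the gene, and of the 12 lower calls 9 did. Slc1a6, Slc7a6 and Slc7a11 were not tested where all 6 arrays had to be above background. The calls lost in some setting were those of Slc7a4, Slc7a6, Slc16a1, Slc16a9 and Slc43a3 among the higher and Slc1a2, Slc6a13 and Slc16a13 among the lower. No called gene changed sign in any of them. Of the 17 genes not called, 12 gained a call in at least 1 setting. The cause of these differences between settings was not tested.

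Same-numbered arrays shared a slide, and their deviations from the group means correlated at 0.173, -0.0687 and -0.0106. Those of differently numbered arrays of the 2 diets correlated at -0.197 to 0.167. Whether the numbers pair the samples beyond the slide cannot be told from so few arrays. With slide as a replicate block, 17 carrier genes were higher and 15 lower, and their median stayed at 0.17. Slc43a3 lost its call there, and Slc7a15, Slc15a2 and Slc16a8 gained one as lower (adjusted p of 0.049, 0.027 and 0.0076). Control values below background limit Slc7a11 and Slc7a6 to bounds.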
